A study of Rattus norvegicus with 52 samples.

Results

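Tp63, Snai2, Sox9, Sox10, Zeb1, Zeb2, Egr2 and Tbx3 are transcription factors that are used as markers or regulators of basal and stem-like mammary cells. They were taken by symbol and make up 8 of the 17356 gene rows counted in each RNA library, and all 8 were measured in each of the 48 libraries. Their levels are given as CPM, the count of a gene divided by all gene counts of its library and multiplied by 1000000, a scale on which 1 gene can be compared between libraries. Levels of different genes were not compared, since gene lengths were not used.

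The mammary ducts have an outer layer of basal, or myoepithelial, cells and an inner layer of luminal cells. Tp63 encodes p63, a p53-family factor that basal epithelial cells need, and Snai2 (Slug), Zeb1 and Zeb2 are zinc-finger and homeodomain repressors known for epithelial to mesenchymal transition. Sox9 is known from luminal progenitors, while Sox10 is known both from mammary epithelium and as the lineage factor of Schwann cells, the glia of peripheral nerves, so its counts in a sorted fraction can have either source. Egr2 (Krox20) drives myelination in Schwann cells and is also an immediate early gene that responds to growth factors and to handling of cells. Tbx3 is a T-box factor known from hormone-responsive luminal cells and from mammary bud formation.

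RNA was sequenced from mammary cells sorted by surface markers, in 24 groups of 1 to 3 libraries. At 9 weeks, basal cells (Cd24+ Cd29 high), mature luminal cells (Cd24+ Cd29 low, negative for Cd49b and PNA, the peanut lectin) and luminal progenitors (LP) sorted as PNA+ or as Cd49b+ came from Cdkn1b+/+ and Cdkn1b-/- ACI rats, with 2 libraries of each genotype and fraction. At 4 and 6 weeks, basal and luminal (Cd24+ Cd29 low) cells came from ACI rats of both genotypes, in 20 libraries. A further 12 libraries came from basal and luminal cells of ACI and BN rats without and with estradiol (E2), where ACI had 2 libraries and BN 1 library for each cell type and treatment. The titles of its luminal libraries also name CD49b and PNA without saying how these were gated, and each BN title holds 2 identifier numbers, so that a pool of rats and 1 rat cannot be told apart there. Cdkn1b encodes the cell cycle inhibitor p27. The knockout was germline, so that each cell of the rat carried it, it joined the em1 and em4 deletion alleles in equal parts, and controls were littermates from heterozygous crosses. The paper made the deletions in outbred Sprague-Dawley rats, backcrossed them to ACI and sorted cells from an early and a late backcross generation. The labels do not give the generation of a library, so that its remaining Sprague-Dawley share is not known. ACI is the strain in which E2 induces mammary tumors and BN is resistant. The E2-experiment rats carried no deletion and their treatment began at 9 weeks of age. In the paper it ran for 3 weeks from implants with E2, and control implants were empty. The labels of these libraries give no age. Nothing in the labels says that libraries with different numbers came from separate animals beyond the title identifiers, so that p-values measure the spread between these libraries.

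The counts assigned to genes ranged from 7985619 to 33859550 per library, and 3 members had counts above 0 in every library. The sorted fractions were checked against defining markers (Krt5, Krt14, Krt17, Acta2, Myh11, Oxtr and Cnn1 for basal cells). Their summed level was 19100 to 30100 CPM in 9-week basal libraries against 239 to 2980 CPM in 9-week luminal libraries, and 5510 to 17000 CPM in younger basal libraries against 123 to 629 CPM in younger luminal ones. In the E2 experiment the luminal libraries lay between 103 and 1780 CPM, the highest being ACI E2 luminal replicate 2. The basal libraries there lay between 2000 and 17400 CPM. The lowest was ACI E2 basal replicate 1, in which Tp63 and Oxtr had no counts and Krt14 was at 56.3 CPM, so that its basal markers are largely absent, and values without it are given below. Defining endothelial and pericyte markers (Pecam1, Cdh5, Kdr, Rgs5, Pdgfrb) summed to 1878 CPM there, 1028 in ACI control basal replicate 2 and 808 in the BN control basal library. Fibroblast markers summed to 9913 CPM in the BN E2 basal library, the highest of the 48 libraries and the only one of its group. Among luminal libraries they summed to 1630 CPM in the 6-week Cdkn1b-/- luminal replicate 2 and 3482 in ACI E2 luminal replicate 1. In bulk libraries fewer cells of a type and less RNA per cell cannot be told apart. Cdkn1b itself was at 1.59 to 4.24 CPM in the 8 Cdkn1b-/- libraries of 9 weeks and at 6.00 to 18.0 CPM in the 8 Cdkn1b+/+ libraries, and at 4.30 to 15.2 against 15.6 to 43.9 CPM at 4 weeks. At 6 weeks the genotypes overlapped (11.1 to 30.2 in Cdkn1b-/- and 3.13 to 46.3 CPM in Cdkn1b+/+), so that Cdkn1b counts do not check the labels of that age.

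Tp63 and Snai2 separated basal from luminal libraries at 4, 6 and 9 weeks. Tp63 at 9 weeks was at 67.4 and 55.0 CPM in Cdkn1b-/- basal cells and at 121 and 101 CPM in Cdkn1b+/+ basal cells. It was at 0.717, 1.65, 4.75 and 11.4 CPM in Cdkn1b-/- LP, at 1.78, 1.89, 6.68 and 8.85 CPM in Cdkn1b+/+ LP, and at 1.15 to 2.65 CPM in the 4 mature luminal libraries. The basal libraries were thus all above the luminal ones. On the log2 scale Tp63 was 5.54 (SE 0.75) higher in basal than in mature luminal cells (adjusted p = 8.68e-05, edgeR's quasi-likelihood test, here and throughout adjusted by Benjamini-Hochberg over all genes tested) and 4.22 (SE 0.53) higher than in LP (adjusted p = 2.85e-05, same edgeR test).

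Tp63 was also apart at the younger ages. The 5 basal libraries of 4 weeks held 35.5, 119, 138, 205 and 267 CPM, and the 6 luminal ones had a median of 0.102 CPM and a highest value of 0.843 CPM, with 3 at 0. At 6 weeks the basal libraries held 16.2, 60.7, 62.4, 140 and 204 CPM and 3 of 4 luminal libraries had no count, with 0.402 CPM in the fourth. The fitted differences, 9.92 (SE 0.80) at 4 weeks and 10.87 (SE 1.06) at 6 weeks on the log2 scale (adjusted p = 9.70e-07 and 0.00164, edgeR), depend on the prior count because of these zeros and are no bound. A count of 0 allows up to 3 counts in a library, which covers counting error only.

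Snai2 followed the same order with lower basal levels at 9 weeks than at the younger ages. At 9 weeks the basal libraries held 30.4 and 30.6 CPM (Cdkn1b-/-) and 73.2 and 30.9 CPM (Cdkn1b+/+), LP libraries 0.144 to 8.10 CPM, and mature luminal libraries 0.118 to 0.852 CPM. No luminal library reached a basal one. Snai2 was 6.29 (SE 0.99) higher in basal than in mature luminal cells on the log2 scale (adjusted p = 0.000251, edgeR) and 3.99 (SE 0.65) higher than in LP (adjusted p = 0.000229, edgeR). Basal libraries held 177, 191, 264, 267 and 409 CPM at 4 weeks and 114, 140, 145, 206 and 401 CPM at 6 weeks, against at most 0.998 and 4.25 CPM in luminal libraries of those ages. The log2 differences were 8.71 (SE 0.53, adjusted p = 1.39e-07) and 7.61 (SE 1.20, adjusted p = 0.00722) by edgeR's test. Age and library set cannot be told apart in these levels. Over all 48 libraries the Spearman correlation of Tp63 and Snai2 was 0.82, and within the 20 basal libraries it was 0.59, values that share the libraries' sort purity and depth.

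**Figure D1:**
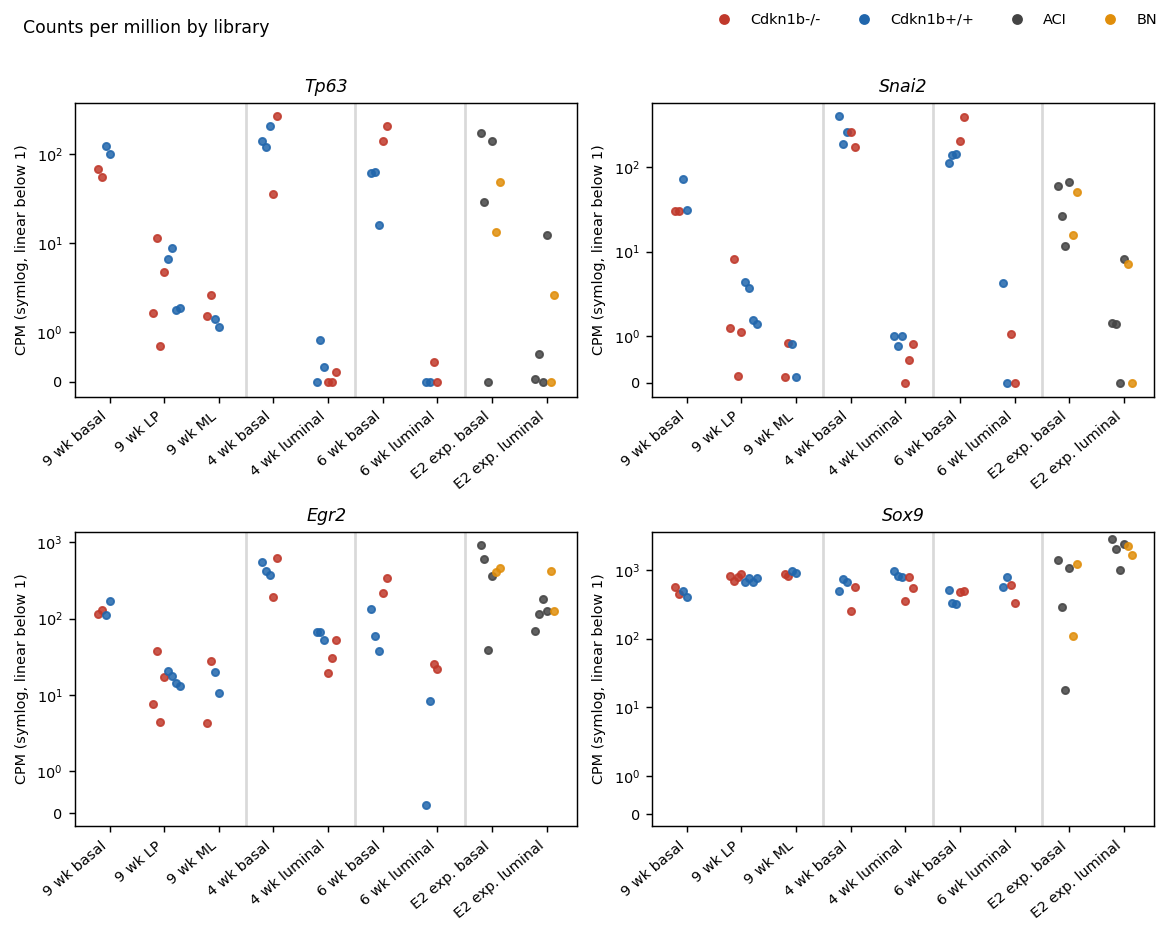
Level of Tp63, Snai2, Egr2 and Sox9 in CPM in each of the 48 libraries, 1 point per library, by sorted population and age or experiment, with genotype or strain as color. Tp63 and Snai2 separate basal from luminal points at every age, Egr2 lies higher in basal points at 4, 6 and 9 weeks, and Sox9 lies lower in basal than in luminal points at 9 weeks.

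Sox9 was lower in basal cells than in both luminal fractions at 9 weeks. It was at 562 and 447 CPM in Cdkn1b-/- basal, 489 and 403 CPM in Cdkn1b+/+ basal, 664 to 858 CPM in the 8 LP libraries and 801 to 949 CPM in mature luminal libraries. The basal libraries did not overlap with the luminal ones. The log2 difference was −1.03 (SE 0.18) against mature luminal cells (adjusted p = 0.000698) and −0.65 (SE 0.16) against LP (adjusted p = 0.00503), both by edgeR's test, and LP against mature luminal cells gave −0.38 (SE 0.16, adjusted p = 0.0921). At 4 weeks basal and luminal libraries overlapped, with 253 to 743 against 355 to 950 CPM, and the difference of −0.45 (SE 0.27) did not pass (edgeR adjusted p = 0.235). At 6 weeks it was −0.39 (SE 0.27, edgeR adjusted p = 0.471), with 313 to 507 against 327 to 784 CPM. In the E2 experiment Sox9 held 978 to 2761 CPM in luminal libraries and 18.1 to 1406 CPM in basal ones, where the lowest was the library without basal Tp63, and was lower in the basal library in all 6 pairs that share a title identifier. That difference of −1.64 (SE 0.80) did not pass (edgeR adjusted p = 0.341), nor did that of −1.72 without both libraries of that identifier (adjusted p = 0.129).

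Counted together, 5 of the 8 members passed the threshold between basal and mature luminal cells at 9 weeks, 4 higher (Tp63, Snai2, Egr2, Zeb2) and 1 lower (Sox9), where 38.7% of the 12809 genes tested passed in either direction. Between basal cells and LP 6 members passed, 4 higher (Tp63, Snai2, Egr2, Sox10) and 2 lower (Sox9, Zeb1), against 50% of all genes. At 4 weeks 6 members passed, all higher in basal cells, where 35.1% of all genes passed and 20.3% were higher, and at 6 weeks 4 (Tp63, Snai2, Sox10, Egr2), where 5.65% passed and 3.49% were higher. The 6-week count fell to 2, Tp63 and Snai2, without Cdkn1b+/+ basal replicate 1, Cdkn1b+/+ basal replicate 2 or Cdkn1b-/- basal replicate 1. Those fits called 443, 465 and 273 genes in all, against 673 with every library. With a term for the level of Schwann cell markers, described below, Snai2 was the 1 member that passed at 4 weeks (8.59, edgeR adjusted p = 0.0267) and 0 passed at 6 weeks, where that fit called 27 genes in all.

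**Figure D2:**
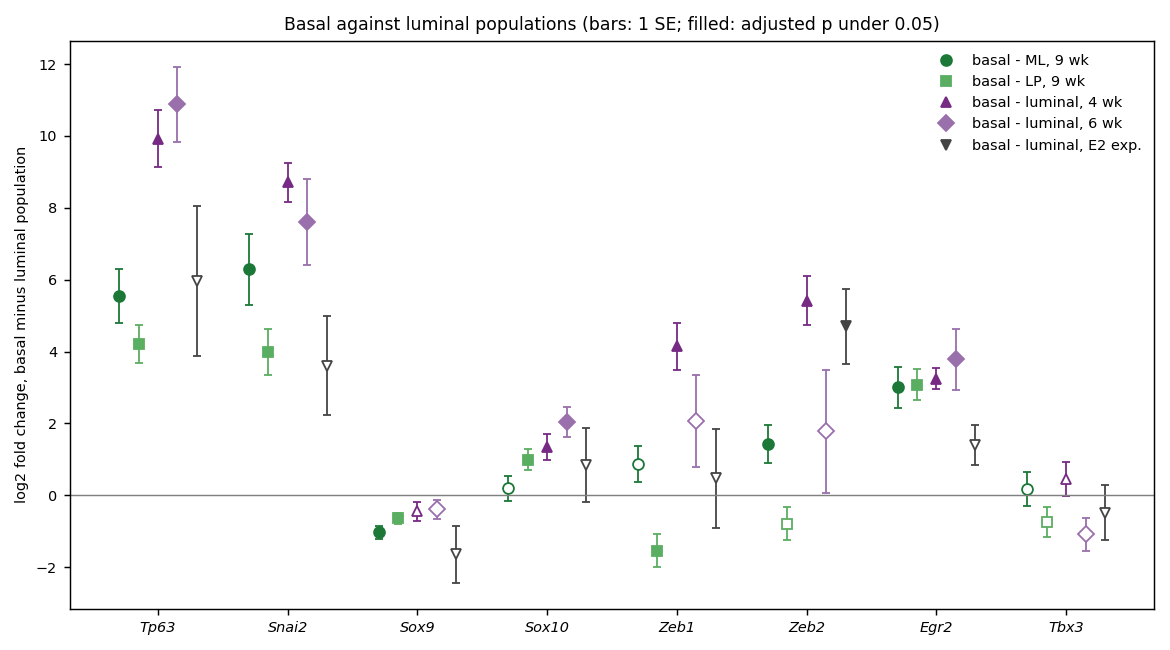
Log2 fold change of each member, basal minus luminal, in 5 comparisons (against mature luminal cells and LP at 9 weeks, and against luminal cells at 4 weeks, 6 weeks and in the E2 experiment), with bars of 1 SE from edgeR and filled points for an adjusted p under 0.05. Tp63, Snai2 and Egr2 lie above 0 throughout, Sox9 lies below 0 throughout, and Zeb1 changes sign between the mature luminal and LP comparisons at 9 weeks.

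Sox10, unlike Tp63, overlapped between basal and luminal libraries at 9 weeks. At 9 weeks it was at 226 and 211 CPM in Cdkn1b-/- basal cells and 146 and 203 CPM in Cdkn1b+/+ basal cells. In mature luminal cells it was at 255 and 132 CPM (Cdkn1b-/-) and 141 and 104 CPM (Cdkn1b+/+). In Cdkn1b+/+ LP it was at 59.5, 61.4, 65.5 and 66.6 CPM, and in Cdkn1b-/- LP at 90.5, 90.9, 203 and 222 CPM. The basal range overlapped with the mature luminal range and with the upper 2 Cdkn1b-/- LP libraries. Basal against mature luminal cells gave a log2 difference of 0.19 (SE 0.36, edgeR adjusted p = 0.704), which turned to −0.05 without Cdkn1b-/- mature luminal replicate 2. Against LP Sox10 was 0.99 (SE 0.30) higher in basal cells (edgeR adjusted p = 0.0141). The call was lost without Cdkn1b+/+ basal replicate 2 (0.83, edgeR adjusted p = 0.0711), with PNA+ libraries alone (0.93, edgeR adjusted p = 0.0752) and with the PNA+ and Cd49b+ counts of each genotype and number summed (0.93, edgeR adjusted p = 0.0575).

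At the younger ages Sox10 was higher in basal than in luminal cells. At 4 weeks it held 72.0, 108, 198, 231 and 288 CPM in basal libraries and 18.6, 55.3, 67.2, 79.1, 109 and 128 CPM in luminal ones, with overlap, and was higher in the basal library of 4 of 5 pairs. The log2 difference was 1.34 (SE 0.37, edgeR adjusted p = 0.0122), and 0.86 (adjusted p = 0.0785) without Cdkn1b-/- basal replicate 2. At 6 weeks basal libraries held 85.4, 210, 260, 285 and 397 CPM and luminal ones 45.6, 58.8, 66.8 and 68.4 CPM, with no overlap. The log2 difference was 2.04 (SE 0.43, edgeR adjusted p = 0.0243), and leaving out 1 library ended the call for 5 of the 9 libraries, with differences of 1.77 to 2.11 in those fits. Those libraries were Cdkn1b+/+ basal replicates 1 and 2, Cdkn1b+/+ luminal replicates 1 and 2 and Cdkn1b-/- basal replicate 1.

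Schwann cell markers were set beside these levels, because Sox10 counts of glia and of epithelium cannot be told apart by the counts alone. Of the 18 Schwann cell genes compared, 16 were in the files. Between basal and luminal cells at 4 weeks 11 of 16 tested were higher in basal cells and 1 (Fabp7) lower, where 35.1% of all genes passed in either direction, with a median log2 difference of 3.22 against −0.01 over all genes tested. Cdh19, a cadherin of Schwann cells, was 8.17 (SE 0.57) higher, and Scn7a, a sodium channel of nonmyelinating glia, 7.76 (SE 1.02) higher (edgeR adjusted p = 3.39e-07 and 5.82e-05). At 6 weeks, where 5.65% passed, 4 of 16 were higher and 0 lower, with a median of 0.98 against 0.08. At 9 weeks 8 of 15 were higher and 2 (Mbp, Cnp) lower against mature luminal cells, where 38.7% passed, with a median of 1.55 against −0.04, and 5 were higher and 1 (Mbp) lower against LP, where 50% passed, with a median of 0.88 against 0.06. Which cells the counts of the listed genes came from was not tested. Ngfr and Gfap were among the largest 9-week differences. Mbp was above 0 in all 48 libraries and lower in basal cells than in both luminal fractions of 9 weeks.

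The summed level of Cdh19, Mag and Scn7a, chosen after seeing the data as markers low in luminal cells, was therefore used as a narrower measure that leaves out Mbp. It was 101 to 668 CPM in the 4-week basal libraries, 11.1 to 830 CPM in the 6-week ones, 174 to 1783 CPM in control basal libraries of the E2 experiment and 17.4 to 21.2 CPM in E2-treated ones. In the 9-week basal libraries it was 4.70, 7.73, 9.75 and 16.1 CPM, and in the 28 luminal libraries 0 to 31.4 CPM. Mag had no count in 4 basal and 9 luminal libraries, and Cdh19 none in 1 basal and 7 luminal libraries.

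Sox10 was present where these markers were low. In the 9 basal libraries with a sum under 50 CPM Sox10 had a median of 146 CPM and a range of 28.8 to 285 CPM, and in the 11 basal libraries with a sum of 101 to 1783 CPM its median was 198 CPM with a range of 37.5 to 397 CPM. The cut at 50 CPM was set after seeing the data. The level of 28.8 CPM was in ACI E2 basal replicate 1, whose basal markers were largely absent. The 6-week Cdkn1b+/+ basal replicate 2 had 285 CPM of Sox10 with a sum of 11.1 CPM, while ACI control basal replicate 1, with the highest sum of 1783 CPM, had 144 CPM of Sox10. Other libraries went the other way. At 4 weeks Cdkn1b-/- basal replicate 2 had both the highest Sox10 level, 288 CPM, and the highest sum, 668 CPM. At 6 weeks Cdkn1b-/- basal replicate 1 had both, at 397 and 830 CPM. Leaving out either library ended the Sox10 call at its age, as did other libraries at 6 weeks. The 9-week Cdkn1b-/- mature luminal replicate 1 had 255 CPM of Sox10 with Cdh19 at 0.0403 CPM and a sum of 1.37 CPM. Cdh19, Mag and Scn7a were chosen as low in luminal cells, so that a low sum in luminal libraries follows from the choice. Mbp was at 257 CPM in this library, and its defining Schwann markers summed to 265 CPM, the highest of the 12 luminal libraries of 9 weeks. Over the 20 basal libraries the Spearman correlation of Sox10 with the sum of Cdh19, Mag and Scn7a was 0.08 (Pearson 0.12 on the log2 scale), and over the 28 luminal libraries it was 0.07 (Pearson 0.13), both as descriptions over libraries that share depth and sort. The 20 basal libraries join sets that differ in sort purity. With the defining Schwann sum it was 0.27 over the 10 basal libraries of 4 and 6 weeks and 0.54 over the 6 of the E2 experiment. With the summed basal markers it was 0.14 and 0.83 in the same sets. Each 4-week basal library had at least 101 CPM of Cdh19, Mag and Scn7a together. How many Sox10 counts came from Schwann cells in libraries with high sums was not tested. With the mean log2 CPM of the 9 defining Schwann markers, Mbp among them, as a term of the model, Sox10 was 1.30 higher in basal cells than in LP (edgeR adjusted p = 0.00556), and the difference between basal and luminal cells was −0.54 at 4 weeks (adjusted p = 0.833) and 2.53 at 6 weeks (adjusted p = 0.549). That term was 2.99 to 4.49 in basal and −0.52 to 0.80 in luminal libraries at 4 weeks, so that marker level and cell type cannot be told apart in that fit. It overlapped at 6 weeks (0.12 to 4.36 against −0.88 to 1.04) and at 9 weeks (0.58 to 1.30 against −0.24 to 1.39).

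**Figure D3:**
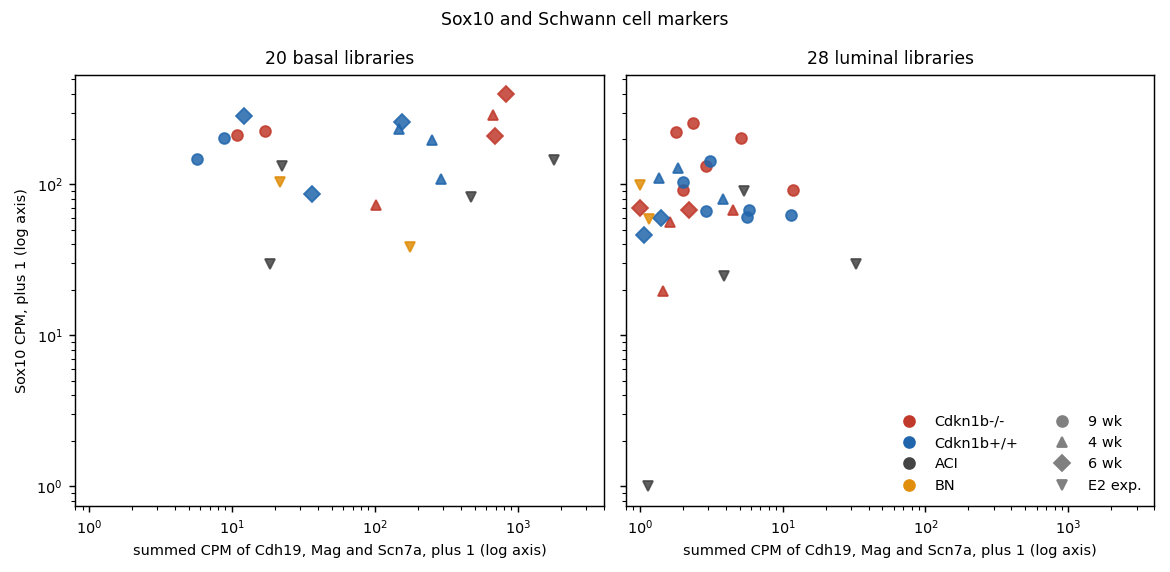
Sox10 level against the summed level of Cdh19, Mag and Scn7a, both in CPM, with 1 point per library and basal and luminal libraries marked apart. Basal libraries with a sum under 50 CPM span 28.8 to 285 CPM of Sox10 and those with higher sums span 37.5 to 397 CPM.

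Zeb1 and Zeb2 had a different order at 9 weeks, with LP above mature luminal cells. The RefSeq promoters (build GRCr8, the 250 bases before the annotated start, minus strand in each case) are shown because Snail and Zeb factors are known to bind the E-box CAGGTG, read on the other strand as CACCTG. The Zeb1 promoter (chr17:56810654-56810903) holds 1 such E-box, whose first base lies 95 bases before the start and which is in capitals. The Zeb2 promoter (chr3:49754324-49754573) holds none, and neither does that of Tp63 (chr11:88554178-88554427). Of all 33469 promoters of this length, 15.9% hold the motif on either strand, and a match is no measure of binding.
Zeb1: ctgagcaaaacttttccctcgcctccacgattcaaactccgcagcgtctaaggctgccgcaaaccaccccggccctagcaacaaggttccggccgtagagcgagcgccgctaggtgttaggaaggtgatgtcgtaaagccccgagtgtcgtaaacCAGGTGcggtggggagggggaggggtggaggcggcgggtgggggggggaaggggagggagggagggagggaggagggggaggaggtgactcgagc
Zeb2: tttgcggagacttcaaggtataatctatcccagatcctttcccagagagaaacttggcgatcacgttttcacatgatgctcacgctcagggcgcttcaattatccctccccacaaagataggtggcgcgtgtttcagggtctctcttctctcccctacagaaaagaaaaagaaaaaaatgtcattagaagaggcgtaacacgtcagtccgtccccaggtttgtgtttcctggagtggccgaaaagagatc

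Zeb1 at 9 weeks was at 14.2, 21.3, 29.2 and 31.5 CPM in Cdkn1b+/+ LP and 2.94, 7.53, 9.57 and 31.0 CPM in Cdkn1b-/- LP. It was at 1.57, 3.10, 3.16 and 3.34 CPM in mature luminal cells and at 3.14, 4.09, 7.82 and 10.0 CPM in basal cells. All Cdkn1b+/+ LP libraries were above all basal and mature luminal ones, while Cdkn1b-/- LP overlapped with both. Zeb1 was 2.42 (SE 0.48) higher on the log2 scale in LP than in mature luminal cells (edgeR adjusted p = 0.00483) and 1.54 lower, as a difference of −1.54 (SE 0.45), in basal cells than in LP (edgeR adjusted p = 0.0121). The latter call was lost with PNA+ libraries alone (−1.05, edgeR adjusted p = 0.0814), without Cdkn1b-/- basal replicate 2 (−1.44, adjusted p = 0.0573) and without Cdkn1b+/+ basal replicate 2 (−1.47, adjusted p = 0.0514). Against mature luminal cells basal cells gave 0.88 (SE 0.50, edgeR adjusted p = 0.183).

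Zeb2 was at 14.6, 24.8, 27.8 and 30.6 CPM in Cdkn1b+/+ LP, 1.58, 5.59, 6.20 and 23.7 CPM in Cdkn1b-/- LP, 1.65, 2.83, 3.20 and 3.62 CPM in mature luminal cells and 4.36, 7.06, 9.93 and 12.9 CPM in basal cells. Its order was that of Zeb1, and the basal libraries lay above the mature luminal ones without overlap. LP against mature luminal cells gave a log2 difference of 2.23 (SE 0.50, edgeR adjusted p = 0.00792), which with PNA+ libraries alone was 1.55 (adjusted p = 0.0572). Basal against mature luminal cells gave 1.43 (SE 0.53, edgeR adjusted p = 0.0465). That call was lost when 1 library was left out in 7 of 8 cases, with 1.21 to 1.57 and an adjusted p of up to 0.119. It held without Cdkn1b+/+ basal replicate 1. Basal against LP gave −0.80 (SE 0.46, edgeR adjusted p = 0.164).

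With Zeb1 and Zeb2, 2 of the 8 members passed between LP and mature luminal cells, against 23.4% of all genes tested. With the genotype and number of the libraries as a replicate block the count was 6, adding Snai2 (2.34 higher in LP), Sox9 (−0.38), Sox10 (−0.83) and Tbx3 (1.04 higher). It was 4 without Cdkn1b-/- mature luminal replicate 2 (with Sox10 and Tbx3) or without Cdkn1b-/- PNA+ replicate 1 (with Snai2 and Sox10). Those fits called 1515 and 3372 genes in all, against 2999 with every library, and the total with the block is not given. Endothelial and pericyte markers moved with both Zeb genes. Of the 13 listed, 12 were higher in LP than in mature luminal cells, with a median of 2.17 against −0.07 over all genes, and 7 were lower in basal cells than in LP. Their summed defining markers were at 290 to 568 CPM in Cdkn1b+/+ LP, 61.5 to 589 CPM in Cdkn1b-/- LP, 32.0 to 61.3 CPM in mature luminal cells and 60.4 to 142 CPM in basal cells. Over the 12 luminal libraries of 9 weeks Pearson's r of this sum with Zeb1 on the log2 scale was 1.00 (Spearman 0.94) and with Zeb2 0.96 (Spearman 0.87), points that share animals, depth and sort. The part of those cells in the Zeb1 and Zeb2 counts was not tested.

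**Figure D4:**
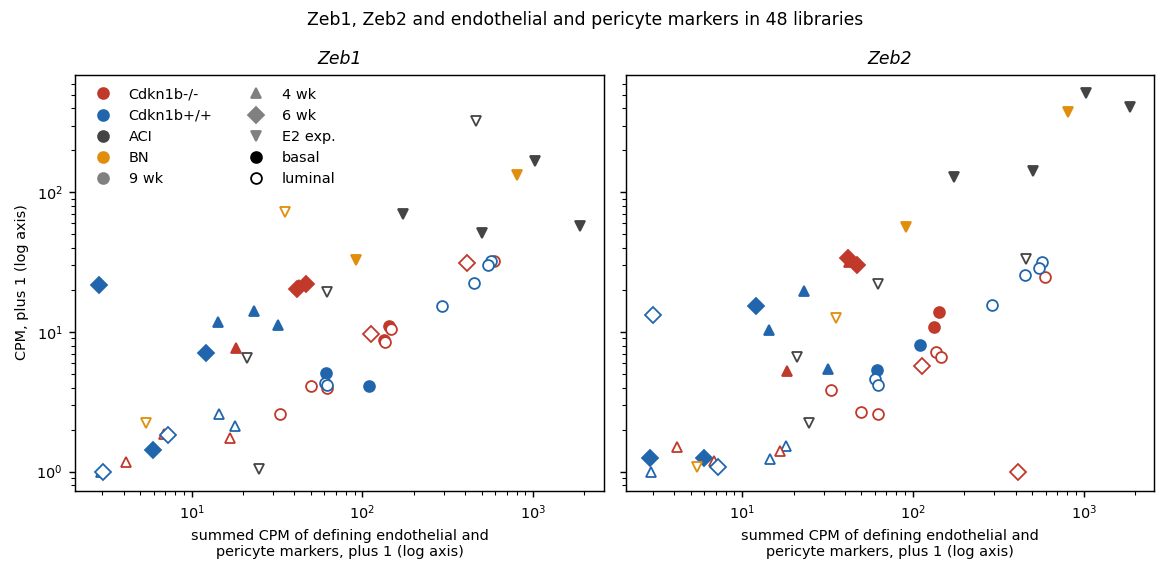
Zeb1 and Zeb2 levels against the summed defining endothelial and pericyte markers, all in CPM, with 1 point per library. Within the 12 luminal libraries of 9 weeks the points of both genes lie close to a line, from mature luminal libraries at 32.0 to 61.3 CPM of markers to LP libraries of up to 589 CPM.

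At 4 weeks both Zeb genes were higher in basal cells, where that sum was 13.3 to 41.5 CPM. Zeb1 held 6.64, 10.3, 10.8, 13.2 and 20.9 CPM in basal libraries and 0 to 1.57 CPM in luminal ones, and Zeb2 held 4.27, 4.42, 9.36, 18.7 and 31.0 CPM against 0 to 0.521 CPM. Neither overlapped, and the log2 differences were 4.14 (SE 0.66, edgeR adjusted p = 0.000287) for Zeb1 and 5.42 (SE 0.69, edgeR adjusted p = 4.56e-05) for Zeb2. All 12 fibroblast genes tested and 11 of 16 Schwann cell genes were higher in the same comparison, and the part of those cells was not tested. With the Schwann marker term both calls were lost (Zeb1 3.88, edgeR adjusted p = 0.388, and Zeb2 1.39, adjusted p = 0.739). At 6 weeks Zeb2 was at 0.244, 0.251, 14.4, 29.2 and 32.8 CPM in basal and 0, 0.0761, 4.74 and 12.1 CPM in luminal libraries, with overlap. The log2 difference of 1.78 (SE 1.71) did not pass (edgeR adjusted p = 0.626). The 2 basal libraries under 1 CPM, Cdkn1b+/+ basal replicates 2 and 3, also had the 2 lowest basal sums of Cdh19, Mag and Scn7a at 6 weeks (11.1 and 35.4 CPM). Over the 10 basal libraries of 4 and 6 weeks the Spearman correlation of Zeb2 with that sum was 0.95. Zeb1 gave 2.06 (SE 1.28, edgeR adjusted p = 0.407) at 6 weeks, where the luminal library richest in fibroblast markers held 30.4 CPM. Over all 48 libraries the Spearman correlation of Zeb1 with Zeb2 was 0.79.

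Egr2 was higher in basal cells at each age. Its promoter (chr20:21054442-21054691, GRCr8, minus strand) is shown because it holds a CArG box, the motif bound by serum response factor, which acts on immediate early genes. The box is CCATATATGG, in capitals, and its first base is 83 bases before the start. The motif was chosen after seeing the sequence, the search covers both strands because its reverse complement is also a CArG box, and 1.5% of the 33469 promoters (501) hold one. It overlaps with no E-box of the kind above, which this promoter lacks.
Egr2: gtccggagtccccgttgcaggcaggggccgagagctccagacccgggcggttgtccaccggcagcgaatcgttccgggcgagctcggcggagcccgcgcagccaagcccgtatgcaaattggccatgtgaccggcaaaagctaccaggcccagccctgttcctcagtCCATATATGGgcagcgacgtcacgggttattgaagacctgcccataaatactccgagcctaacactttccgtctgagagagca

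Egr2 at 9 weeks was at 116 and 130 CPM in Cdkn1b-/- basal cells and at 110 and 169 CPM in Cdkn1b+/+ basal cells. It was at 4.38 to 37.9 CPM in the 8 LP libraries and at 4.23, 10.4, 20.1 and 27.4 CPM in mature luminal cells, with no overlap. The log2 difference was 3.01 (SE 0.57, edgeR adjusted p = 0.00099) against mature luminal cells and 3.08 (SE 0.44, edgeR adjusted p = 8.16e-05) against LP. At 4 weeks basal libraries held 193, 378, 425, 551 and 632 CPM and luminal ones 19.4 to 67.5 CPM, a log2 difference of 3.24 (SE 0.30, edgeR adjusted p = 2.88e-06). At 6 weeks basal libraries held 37.3, 59.9, 135, 217 and 343 CPM and luminal ones 0.202, 8.37, 21.8 and 25.1 CPM, again without overlap, and the log2 difference was 3.79 (SE 0.85, edgeR adjusted p = 0.0313). Leaving out 1 library ended the 6-week call for 5 of 9 libraries, with differences of 3.49 to 3.93 and an adjusted p of up to 0.0921. These were Cdkn1b+/+ basal replicates 1 and 2, both Cdkn1b-/- basal libraries and Cdkn1b-/- luminal replicate 2. The replicate block also ended it (4.46, edgeR adjusted p = 0.0514). With the Schwann marker term Egr2 lost its call at 4 weeks (1.41, edgeR adjusted p = 0.425) and at 6 weeks (4.87, adjusted p = 0.634) and kept it at 9 weeks (1.99, adjusted p = 0.0224, against mature luminal cells and 2.66, adjusted p = 0.000228, against LP). Within the 20 basal libraries the Spearman correlation of Egr2 with the Cdh19, Mag and Scn7a sum was 0.69, against 0.08 for Sox10, and at 9 weeks the basal levels of 110 to 169 CPM stood beside sums of 4.70 to 16.1 CPM. With the summed basal markers that of Egr2 was 0.03 over the 20 libraries and 0.92 over the 10 of 4 and 6 weeks. In those 10 it was 0.64 with the defining Schwann sum and 0.70 each with the fibroblast sum and the endothelial and pericyte sum.

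Tbx3 did not follow the basal and luminal division. At 9 weeks it was at 75.7, 107, 131 and 146 CPM in Cdkn1b+/+ LP, 29.1, 34.4, 72.3 and 92.5 CPM in Cdkn1b-/- LP, 7.01, 36.5, 40.7 and 74.0 CPM in mature luminal cells and 32.9, 42.3, 56.6 and 59.5 CPM in basal cells. The Cdkn1b+/+ LP libraries were above all other 9-week libraries but the highest of Cdkn1b-/- LP. Tbx3 gave −0.74 (SE 0.42, edgeR adjusted p = 0.165) in basal cells against LP and 0.90 (SE 0.43, edgeR adjusted p = 0.141) in LP against mature luminal cells. At 6 weeks it was at 12.2, 28.1, 37.0, 38.9 and 51.8 CPM in basal and 63.1, 67.8, 71.6 and 77.3 CPM in luminal libraries, without overlap, and the difference of −1.09 (SE 0.45) did not pass (edgeR adjusted p = 0.204). At 4 weeks basal libraries lay between 8.55 and 83.1 CPM and luminal ones between 12.2 and 69.7 CPM.

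**Figure D5:**
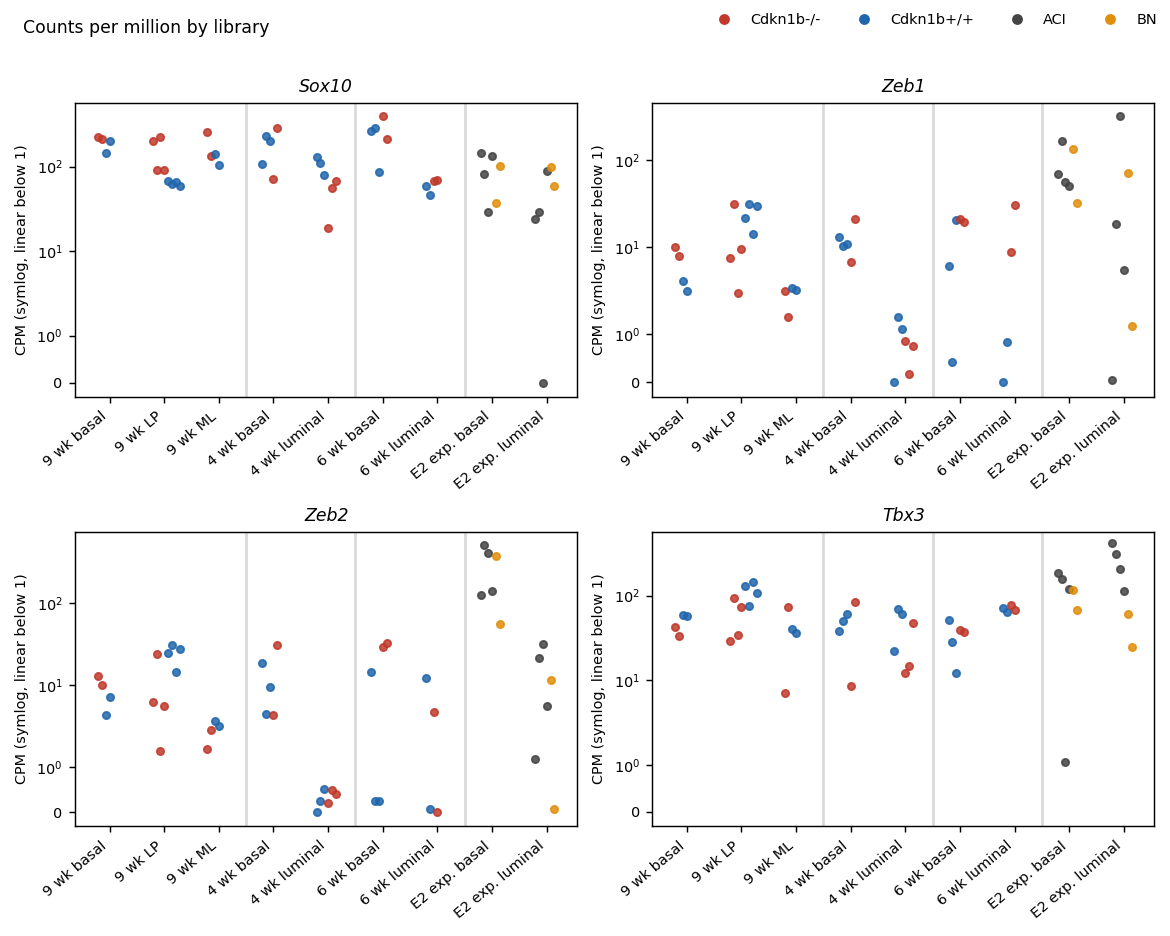
Level of Sox10, Zeb1, Zeb2 and Tbx3 in CPM in each of the 48 libraries, 1 point per library, by sorted population and age or experiment, with genotype or strain as color. Sox10 is above 0 in 47 libraries and in basal and luminal cells alike, Zeb1 and Zeb2 are highest in basal libraries of the E2 experiment apart from luminal libraries of 321 and 70.8 CPM of Zeb1, and the 3 highest levels of Tbx3 are in ACI luminal libraries.

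Loss of Cdkn1b was compared within each fraction. In LP at 9 weeks Sox10 was higher in Cdkn1b-/- than in Cdkn1b+/+ rats, with all 4 Cdkn1b-/- libraries (90.5 to 222 CPM) above all 4 Cdkn1b+/+ libraries (59.5 to 66.6 CPM). The log2 difference was 1.63 (SE 0.37, edgeR adjusted p = 0.0291), and Sox10 was the 1 member of 8 that passed, against 3.4% of all genes tested. The 4 LP libraries of a genotype came from 2 numbers, each sorted as PNA+ and Cd49b+, and libraries of 1 number resembled each other (203 and 222 CPM for number 1, 90.9 and 90.5 CPM for number 2). With the counts of both sorts summed for each number the difference was 1.58 with an edgeR adjusted p of 0.568. Without Cdkn1b-/- number 1 it was 0.72 (adjusted p = 0.091) and without number 2 it was 2.20 (adjusted p = 0.000651). Leaving out single LP libraries gave 1.31 to 1.87, and the call was lost on leaving out any 1 of the 4 Cdkn1b+/+ libraries, or the PNA+ or Cd49b+ library of Cdkn1b-/- number 1, with an adjusted p of 0.0716 to 0.0947. The fits that lost it called 157 to 239 genes in all, against 436 with every library. Defining endothelial and pericyte markers summed to 290 to 568 CPM in Cdkn1b+/+ LP. They summed to 136 and 61.5 CPM in the Cdkn1b-/- LP libraries of number 1 and to 589 and 145 CPM in those of number 2. Over the 12 luminal libraries of 9 weeks the Spearman correlation of Sox10 with that sum was −0.74 (Pearson −0.77 on the log2 scale). The part of sort purity in the Sox10 difference was not tested.

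Of the 15 Schwann cell genes tested in the same comparison edgeR called 0 as higher or lower in Cdkn1b-/- LP, with 3 at an unadjusted p under 0.05, and DESeq2 called 1 as higher (Cnp) and 1 as lower (Pmp2). Their median was −0.23 against 0.03 over all genes. In the highest Sox10 libraries of LP, 203 and 222 CPM, the sum of Cdh19, Mag and Scn7a was 4.11 and 0.789 CPM, against 1.94 to 10.4 CPM in Cdkn1b+/+ LP. These markers were chosen as low in luminal cells. Mbp was at 233 and 210 CPM in the same libraries and at 111 and 120 CPM in the remaining Cdkn1b-/- LP libraries. In Cdkn1b+/+ LP it was at 110, 113, 203 and 219 CPM. The source of these counts was not tested. In basal cells Sox10 gave 0.56 (SE 0.51, edgeR adjusted p = 0.788) and in mature luminal cells 0.89 (SE 0.51, edgeR adjusted p = 0.818). Of the 8 members 0 passed in basal or mature luminal cells at 9 weeks, where 0.0546% and 0.133% of all genes did, and 1164 and 916 of 12809 genes had an unadjusted p under 0.05. DESeq2 also called 0 members in both. The test of whether the genotype difference itself differed between basal cells and LP called 0 of 12809 genes (926 at an unadjusted p under 0.05, and 82 by DESeq2 with 0 members). Sox10 had −1.07 (SE 0.62, edgeR adjusted p = 0.777), Zeb1 2.30 (SE 0.86, edgeR adjusted p = 0.629) and Zeb2 2.47 (SE 0.90, edgeR adjusted p = 0.607) in that test.

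The other members in LP did not pass between genotypes. Zeb1 gave −0.74 (SE 0.48, edgeR adjusted p = 0.451), Zeb2 −1.23 (SE 0.51, edgeR adjusted p = 0.222), Tbx3 −0.75 (SE 0.48, edgeR adjusted p = 0.434) and Sox9 0.47 (SE 0.18, edgeR adjusted p = 0.188). The Cdkn1b-/- Cd49b+ replicate 2 library decided the calls of Zeb1, Zeb2 and Sox9. It held the highest Zeb1 and the highest Zeb2 level of Cdkn1b-/- LP (31.0 and 23.7 CPM), with an endothelial and pericyte sum of 589 CPM against 61.5 to 145 CPM in the other 3. Without it Zeb1 gave −1.48 (edgeR adjusted p = 0.0365), Zeb2 −2.08 (adjusted p = 0.0101) and Sox9 0.61 (adjusted p = 0.0391), so that 4 members passed. That fit called 1209 genes in all, against 436 with every library. Zeb1 in basal cells at 9 weeks was at 7.82 and 10.0 CPM in Cdkn1b-/- and 3.14 and 4.09 CPM in Cdkn1b+/+ libraries, without overlap, and gave 1.56 (SE 0.71, edgeR adjusted p = 0.535).

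At 4 and 6 weeks no gene passed between genotypes in edgeR's test, in either cell type (0% of those tested), with 310 and 435 genes at an unadjusted p under 0.05 in basal and luminal cells at 4 weeks and 1072 and 1961 at 6 weeks. DESeq2 called 0 members in 3 of these comparisons and 1, Zeb1, in luminal cells at 6 weeks. There Zeb1 was at 0 and 0.837 CPM in Cdkn1b+/+ and 8.75 and 30.4 CPM in Cdkn1b-/- libraries, a log2 difference of 5.69 (SE 2.18, edgeR adjusted p = 0.240). The 2 Cdkn1b-/- libraries also had 111 and 412 CPM of endothelial and pericyte markers against 2.02 and 6.24 CPM, and the part of those cells was not tested.

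Age was compared between the 6-week and 4-week libraries, which also differ in depth, 7985619 to 16390460 against 14674040 to 23045345 gene counts, so that age and library set cannot be told apart. By edgeR 0 of the 8 members passed in basal cells, where 3.2% of genes did, or in luminal cells, where 0.74% did, and 2542 and 1955 of 12572 genes had an unadjusted p under 0.05. Egr2 gave −1.54 (SE 0.54, edgeR adjusted p = 0.117) in basal and −2.19 (SE 0.58, edgeR adjusted p = 0.0749) in luminal cells. DESeq2 called Egr2 in both and Zeb2 in luminal cells. In Cdkn1b+/+ libraries alone Egr2 passed in basal (−2.42) and luminal cells (−3.80). The luminal call also appeared without 6-week Cdkn1b+/+ luminal replicate 2 (−4.42, edgeR adjusted p = 0.00114) and without 6-week Cdkn1b-/- luminal replicate 1 (−2.13, adjusted p = 0.0362). Egr1, another immediate early gene, fell by 1.13 (SE 0.30) in basal and 2.07 (SE 0.32) in luminal cells on the log2 scale (edgeR adjusted p = 0.0444 and 0.00585). Zeb2 in luminal cells gave 3.45 (SE 1.26, edgeR adjusted p = 0.179), and −0.61 without 6-week Cdkn1b-/- luminal replicate 1.

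In the E2 experiment Tp63 overlapped between basal and luminal cells only through ACI E2 basal replicate 1, at 0 CPM. Luminal libraries held 0 to 12.5 CPM, the highest in ACI E2 luminal replicate 2, whose basal markers summed to 1780 CPM. Basal libraries held 171 and 29.2 CPM (ACI control), 0 and 141 CPM (ACI E2), 13.5 CPM (BN control) and 48.8 CPM (BN E2). The count of 0 in ACI E2 basal replicate 1 allows a level of up to 0.133 CPM. Tp63 was 5.97 (SE 2.09) higher in basal cells on the log2 scale (edgeR adjusted p = 0.185), and without both libraries of the title identifier whose basal library had no Tp63, a choice made after seeing the data, it was 6.47 higher and passed. Snai2 was at 11.6 to 66.7 CPM in basal and 0 to 8.17 CPM in luminal libraries, without overlap, with a log2 difference of 3.61 (SE 1.39, edgeR adjusted p = 0.231). Sox10 was at 28.8 to 144 CPM in basal and 0 to 97.5 CPM in luminal libraries and gave 0.84 (SE 1.03, edgeR adjusted p = 0.764). Egr2 gave 1.39 (SE 0.55, edgeR adjusted p = 0.246). Without both libraries of that identifier Snai2 gave 3.44, Sox10 0.66 and Egr2 1.75 (edgeR adjusted p = 0.123, 0.501 and 0.0604).

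Zeb2 was the 1 member of 8 that passed there, against 1.66% of all genes. It was at 128, 510, 410, 141, 376 and 55.7 CPM in basal libraries (ACI control, ACI E2, BN control and BN E2 in order) and at 0.0791 to 32.1 CPM in luminal ones, without overlap. The log2 difference was 4.70 (SE 1.03, edgeR adjusted p = 0.0454). It lost the call in 10 of 12 fits that left out 1 library (4.28 to 5.13, adjusted p up to 0.119), and held without ACI E2 luminal replicate 1 or the BN E2 luminal library. The 3 basal libraries with the highest Zeb2 were those with 808 to 1878 CPM of endothelial and pericyte markers, and without these 3, a choice made after seeing the data, the difference was 3.36 (edgeR adjusted p = 0.325). Over the 6 basal libraries the Spearman correlation of Zeb2 with that sum was 0.94. Without the libraries of the identifier that lacked basal Tp63 the Zeb2 difference was 5.09 (edgeR adjusted p = 0.0205).

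Neither E2 nor strain gave a call in any gene by edgeR (0%, with 178 and 437 genes of 12265 and 12670 at an unadjusted p under 0.05 for E2 in basal and luminal cells, and 91 and 511 for strain). DESeq2 called 0 members in 3 of these comparisons and Tbx3 between strains in luminal cells. BN had 1 library per treatment and so no replicates. The spread came from the ACI replicates and from any E2 difference that was unlike between the strains. Tbx3 in luminal libraries was at 419 and 312 CPM in ACI control, 204 and 113 CPM in ACI E2, 60.7 CPM in BN control and 24.5 CPM in BN E2 rats, so that each ACI library was above each BN library. The log2 differences were 2.15 (SE 0.46, edgeR adjusted p = 0.985) for ACI against BN and −1.47 (SE 0.40, edgeR adjusted p = 0.999) for E2 against control. Egr2 in luminal cells gave −1.58 (SE 0.51, edgeR adjusted p = 0.985) for ACI against BN. Zeb1 in basal cells was at 68.6, 166 and 133 CPM in control and 56.2, 50.3 and 31.6 CPM in E2-treated libraries, without overlap, and gave −1.59 (SE 0.55, edgeR adjusted p = 0.9999), or −1.77 without ACI E2 basal replicate 1 (adjusted p = 0.959).

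Other transcription factors of epithelial to mesenchymal transition and of basal and stem cells were taken as a list of 26, of which 24 were in the files. Between basal and mature luminal cells, where 38.7% of all genes passed, 12 of 22 tested were higher and 1 lower, with a median log2 difference of 1.03 against −0.04 over all genes, and against LP, where 50% passed, 11 were higher and 0 lower, with a median of 1.03 against 0.06. Id4, a helix-loop-helix inhibitor of basal cells, was 4.56 (SE 0.62) higher and Twist1 3.42 (SE 0.41) higher than in mature luminal cells, while Bcl11b gave −2.38 (SE 0.70), with edgeR adjusted p of 9.23e-05, 3.45e-05 and 0.0168. Egr3, a relative of Egr2, was 3.46 (SE 0.36) higher in basal cells than in LP (edgeR adjusted p = 6.32e-06). At 4 weeks, against 35.1% of all genes, 12 of 21 were higher and 1, Srf, lower, with a median of 1.49 against −0.01, and Sox2 had the largest difference, 5.67 (SE 0.80, edgeR adjusted p = 0.000109). At 6 weeks, against 5.65%, 1 of 20, Id4, passed with 3.33 (SE 0.38, edgeR adjusted p = 0.00183). In the E2 experiment, against 1.66%, 2 of 24 passed, Foxc2 with 5.47 (SE 1.24) and Snai1 with 2.96 (SE 0.47), at edgeR adjusted p of 0.0493 and 0.0144.

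In LP against mature luminal cells, where 23.4% of all genes passed, 7 of the 22 were higher and 3 lower, with a median of −0.14 against −0.07. Tbx2, the paralog of Tbx3, was 2.45 (SE 0.59) higher in LP and Tcf4 1.83 (SE 0.30) higher, and Sox2 gave −1.57 (SE 0.53), with edgeR adjusted p of 0.0106, 0.00365 and 0.0468. Between genotypes in LP, where 3.4% passed, 1 rose, Sox4 by 1.11 (SE 0.22), and 1 fell, Srf by 1.17 (SE 0.15) on the log2 scale, with edgeR adjusted p of 0.0161 and 0.00146. These fits treat the PNA+ and Cd49b+ libraries of a number as separate, as above.

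The genes with the most similar levels were found by Spearman correlation over the 48 libraries among 11186 genes, a measure that sort purity and depth share. Tp63 was most like Fermt1 (0.94), Snai2 like Schip1 (0.92) and the Notch ligand gene Dll1 (0.91), and Sox10 like the keratinocyte gene Trim29 (0.83) and the adhesion receptor gene Adgrg1 (0.77). For Zeb1 they were Fgl2 (0.91), Ntrk2 (0.90) and Sparcl1 (0.89), and for Zeb2 Olfml2b (0.94). Egr2 was most like Arc (0.90), an immediate early gene, and was also like Id4 (0.86). Sox9 was most like Tprn (0.81) and Tbx3 like Ranbp6 (0.73).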

How the data were processed

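Sorted rat mammary cells were profiled in 48 RNA libraries. The authors prepared low-input SMARTer v4 libraries, sequenced single-end reads, aligned them to rn6 with STAR 2.5.1b and counted reads per refGene gene with htseq-count. The deposited counts are whole numbers and not normalized. The 5 summary rows of each file, 47.1 to 77% of its reads, were left out. Libraries held 7985619 to 33859550 gene counts, which limits genes with few counts.

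The 8 genes and all gene lists were chosen with earlier results of these data known. Groups came from the submitters' labels. Counts were scaled to CPM for display. Tests used R 4.3.3, edgeR 4.0.16 (filterByExpr, TMM, quasi-likelihood test, Benjamini-Hochberg over all genes tested, threshold 0.05) and limma 3.58.1, fitted over all genes. The 16 libraries of 9 weeks shared a fit with PNA+ and Cd49b+ as LP, each younger age was fitted alone, and the E2 experiment had cell type, strain and treatment as terms. DESeq2 1.42.0, RLE normalization, no filter, a replicate block, a Schwann marker covariate and leaving out each library were alternatives. The fits were also run on simulated counts with independent libraries and the same spread setting for all genes. Such counts cannot test how the fits do where libraries deviate together, as described below. The Schwann list and covariate left out 2 genes that are not reported here.

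Genes named are the 8 members, Cdkn1b, the defining Schwann markers, of each list and direction at most the 3 called genes that differed most, and the 3 genes most like each member by Spearman correlation of log2 CPM (prior count 2, mean of at least 1 CPM). Markers that check the sorts were named beside them.

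In 28 pairs of libraries of 1 group no duplicate was found (chi-square per degree of freedom at least 45.2). Libraries of 1 genotype and number at 9 weeks deviated together across fractions (24 pairs, r 0.33 to 0.86), as did those of a shared title identifier at 4 weeks (5 pairs, 0.12 to 0.66) and in the E2 experiment (4 pairs, 0.10 to 0.20). Libraries of the same number and other genotype did not (8 pairs, −0.34 to −0.10), nor did those of a shared identifier at 6 weeks (4 pairs, −0.01 to 0.08). Where both groups held 2 libraries, their deviations from the group mean mirrored each other by construction. Each r at 9 weeks, in the E2 experiment and in Cdkn1b-/- rats of 6 weeks was thus counted for both replicates, and those pairs are not independent. Promoter sequences are from RefSeq (GRCr8), which held 4 of the 8 members. The progesterone receptor ChIP-seq peaks were not analysed here.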

Additional observations from a re-analysis of the deposited data

Results flagged for a closer look

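Snai2 stood apart in 1 library among the 16 pairs of a member and a 9-week LP genotype group that were examined. The rule's rate of about 1 in 20 by chance assumes 4 independent libraries of 1 kind. It does not apply here, since each group joined 2 numbers, each sorted as PNA+ and Cd49b+. In Cdkn1b+/+ LP Snai2 was at 3.67 and 4.42 CPM in Cd49b+ and 1.39 and 1.56 CPM in PNA+ libraries. Cdkn1b-/- Cd49b+ replicate 2 held 8.10 CPM of Snai2, and the other 3 Cdkn1b-/- LP libraries held 0.144 to 1.24 CPM. Tp63 was also highest there, at 11.4 CPM against 0.717 to 4.75 CPM, and the summed basal markers were at 2979 CPM against 334 to 543 CPM. The part of basal cells in these values was not tested.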

How the results depend on the processing

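Of the 25 member results past the threshold, all 25 kept their direction and call with DESeq2 and with no filter on low counts, and 24 with RLE normalization and with the replicate block. Leaving out single libraries kept 221 of 258 calls and reversed 0. With the Schwann marker covariate 11 of 22 were kept, and the members called fell to 1 at 4 weeks (Snai2), 0 at 6 weeks and 0 in the E2 experiment. Zeb1 (−0.23) and Zeb2 (−0.04) between basal and mature luminal cells, and Sox10 (−0.54) at 4 weeks, then had the opposite sign. The covariate did not overlap between basal and luminal libraries at 4 weeks, and the cause was not tested.

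Between LP and mature luminal cells 2 members passed, against 5 with DESeq2, 6 with the replicate block, 1 with PNA+ and 4 with Cd49b+ libraries alone. The block also lost Egr2 at 6 weeks (4.46, adjusted p = 0.0514), where the identifiers did not pair the libraries, and changed no other call of a member. Between genotypes, where the numbers did not pair the libraries, Sox10 in LP had 1.51 with the block and 1.49 with the numbers crossed. Over all genes the block called 14, 671 and 42 in basal cells, LP and mature luminal cells, the crossed block 77, 1284 and 132, and the fit without a block 7, 436 and 17.

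Between genotypes in LP 1 member passed, against 0 with PNA+ alone, Cd49b+ alone or both summed, 0 without Cdkn1b-/- number 1, Cdkn1b+/+ number 1 or Cdkn1b+/+ number 2, and 4 without Cdkn1b-/- number 2. In the E2 experiment 1 passed, against 3 with DESeq2 (Tp63, Snai2, Zeb2), 2 without the identifier lacking basal Tp63 and 0 without the 3 libraries high in endothelial markers. DESeq2 added 1 member between genotypes in 6-week luminal cells (Zeb1), 1 and 2 between ages in basal (Egr2) and luminal cells (Zeb2, Egr2), and 1 between strains in luminal cells (Tbx3). The Cdkn1b+/+ libraries alone gave 1 between ages in each cell type (Egr2).

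Leaving out single libraries gave 2 to 4 members between LP and mature luminal cells and also at 6 weeks, 4 to 7 between basal cells and LP, 4 to 5 between basal and mature luminal cells, 5 to 6 at 4 weeks, 0 to 1 in the E2 experiment, 0 to 4 between genotypes in LP, 0 to 1 between ages in luminal cells and 0 in the others. The number of all genes called moved in these fits too. Sox10 between basal and mature luminal cells ranged from −0.05 to 0.58, and Zeb2 between ages in luminal cells from −0.61 to 3.99. Alternatives that left out a genotype and number, an identifier, the 3 basal libraries or crossed or summed libraries were chosen after seeing the data. Groups of 1 to 3 libraries limit each comparison, and depth limits genes with few counts.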
